A study of Mus musculus with 8 samples.

Results

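Regions that carry H3K9me2 or H3K9me3, the dimethyl and trimethyl marks of lysine 9 of histone H3, were examined in the windows of the mouse genome that hold the olfactory and vomeronasal receptor gene clusters. A region was included by position alone, when its midpoint lay in one of 13 windows on 9 chromosomes (mm10). This gave 541 of 14515 H3K9me3 regions and 47 of 1983 H3K9me2 regions, 588 of 16498 in all. The windows were chromosome 2 from 85 to 90.5 Mb, chromosome 5 from 108 to 109.6 Mb, chromosome 6 from 56.5 to 58 and from 89.5 to 91 Mb, chromosome 7 from 5.5 to 12, from 84 to 87 and from 102 to 109 Mb, chromosome 9 from 37.5 to 40.5 Mb, chromosome 10 from 129 to 130.5 Mb, chromosome 14 from 50 to 54 Mb, chromosome 16 from 58 to 60 Mb, and chromosome 17 from 18 to 20.5 and from 37 to 38.5 Mb. Together they span 41.1 Mb, or 1.51% of the genome.

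The marks were mapped by ChIP-seq (sequencing of DNA pulled down with an antibody) in mouse embryonic fibroblasts immortalized with SV40 T antigen (imMEFs), of strain background C57bl6. HAT1 WT cells carry the intact Hat1 gene and HAT1 KO cells lack it. HAT1 acetylates histone H4 that has just been made, before it is packed onto new DNA, and the study asked whether H3 K9 methylation depends on it. Each mark had 2 HAT1 WT and 2 HAT1 KO libraries, made from immortalized cells of 2 embryos of each genotype. The libraries held 4198682 to 8421762 reads, and human Dbt immortalized myoblasts had been added to every sample as a spike-in. Depth was lowest in the HAT1 KO libraries of each mark. WT replicate 2 of both marks stood apart from the other libraries most of all in one window, chromosome 7 from 5.5 to 12 Mb, and results that rest on it are given with and without it.

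Olfactory receptors (Olfr genes) are G protein-coupled receptors that detect odorants in the nose, and each olfactory sensory neuron uses a single receptor gene out of the whole repertoire. Vomeronasal receptors of the V1R class (Vmn1r genes) and the V2R class (Vmn2r genes) detect pheromones and other cues in the vomeronasal organ, and formyl peptide receptors (Fpr genes) sense microbial and damage peptides. The genes lie in tandem arrays that arose by repeated duplication, so that neighbours are often alike in sequence. H3K9me3 marks constitutive heterochromatin, is bound by HP1 proteins and in olfactory neurons is found over silent receptor arrays. H3K9me2, laid down mainly by G9a and GLP, covers broader domains of repressed chromatin. The annotation places 866 of 1407 Olfr genes, 130 of 238 Vmn2r genes, 87 of 327 Vmn1r genes and 3 of 8 Fpr genes in the windows, pseudogenes included. Zinc-finger genes (28) and Trim genes (14) lie there too. By the family with more genes, 7 windows were classed as olfactory and 6 as vomeronasal.

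Sequences are shown for 5 stretches at the centre of intergenic regions that passed the test between genotypes described below, because all of them lie in one V2R array. They are from GRCm38.p6 (the assembly of mm10), plus strand, and capitals mark bases outside the repeats that RefSeq soft-masks. Repeat-masked sequence made up between 76 and 184 of the 200 bases of each.
chr7:7521116-7521315, region nearest to Gm6842: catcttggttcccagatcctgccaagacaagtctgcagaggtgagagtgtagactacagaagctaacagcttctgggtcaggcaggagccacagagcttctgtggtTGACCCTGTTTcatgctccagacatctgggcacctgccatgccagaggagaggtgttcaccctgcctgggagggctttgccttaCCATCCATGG
chr7:8230189-8230388, region nearest to Vmn2r43: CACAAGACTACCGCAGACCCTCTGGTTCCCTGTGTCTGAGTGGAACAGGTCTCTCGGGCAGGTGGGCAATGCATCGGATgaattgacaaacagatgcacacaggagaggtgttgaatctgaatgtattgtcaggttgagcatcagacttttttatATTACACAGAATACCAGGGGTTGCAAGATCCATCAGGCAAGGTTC
chr7:8359261-8359460, region nearest to Gm7696: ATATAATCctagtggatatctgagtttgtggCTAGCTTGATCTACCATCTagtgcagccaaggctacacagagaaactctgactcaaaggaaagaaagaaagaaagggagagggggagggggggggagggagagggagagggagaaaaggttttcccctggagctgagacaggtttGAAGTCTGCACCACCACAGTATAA
chr7:9994556-9994755, region nearest to Vmn2r49: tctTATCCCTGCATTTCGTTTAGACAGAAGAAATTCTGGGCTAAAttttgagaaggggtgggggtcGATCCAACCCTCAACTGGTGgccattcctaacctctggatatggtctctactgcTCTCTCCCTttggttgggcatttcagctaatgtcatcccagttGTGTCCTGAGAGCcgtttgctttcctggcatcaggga
chr7:10001421-10001620, region nearest to Vmn2r49: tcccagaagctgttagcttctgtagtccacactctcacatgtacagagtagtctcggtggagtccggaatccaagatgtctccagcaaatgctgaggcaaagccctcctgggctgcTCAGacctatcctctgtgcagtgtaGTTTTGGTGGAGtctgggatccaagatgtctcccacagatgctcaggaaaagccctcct

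Sequences are also shown for 5 H3K9me3 regions inside olfactory receptor coding sequence, because these regions held a receptor motif that the text returns to. Capitals mark the letters GCNTANGANNGNTA, which are the codons of alanine, tyrosine, aspartate, arginine and tyrosine in the conserved stretch at the end of the third transmembrane segment of odorant receptors. They are written on the strand of the gene, from GRCm38.p6, and are the regions with the highest mean RPM (reads scaled by the library total) among those that hold the letters and lie wholly in coding sequence. GENCODE annotates a coding sequence also for the pair with ps in the symbol.
Olfr1258, chr2:89930091-89930240, plus strand: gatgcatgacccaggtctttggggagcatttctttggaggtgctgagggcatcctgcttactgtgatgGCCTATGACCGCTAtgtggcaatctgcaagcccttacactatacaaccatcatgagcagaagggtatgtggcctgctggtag
Olfr1264, chr2:90021635-90021784, minus strand: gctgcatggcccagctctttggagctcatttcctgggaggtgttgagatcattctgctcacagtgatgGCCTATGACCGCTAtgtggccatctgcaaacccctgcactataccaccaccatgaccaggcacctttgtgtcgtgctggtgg
Olfr1025-ps1, chr2:85918213-85918362, plus strand: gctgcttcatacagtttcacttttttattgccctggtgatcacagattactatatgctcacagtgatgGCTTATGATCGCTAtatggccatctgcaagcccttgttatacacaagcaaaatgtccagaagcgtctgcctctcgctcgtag
Olfr1038-ps, chr2:86122211-86122360, plus strand: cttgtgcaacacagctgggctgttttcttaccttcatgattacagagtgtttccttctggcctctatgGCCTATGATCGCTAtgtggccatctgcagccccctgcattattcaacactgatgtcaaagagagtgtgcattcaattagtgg
Olfr145, chr9:37897689-37897771, plus strand: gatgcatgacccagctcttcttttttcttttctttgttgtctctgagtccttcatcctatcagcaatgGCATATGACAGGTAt

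H3K9me3 regions were more densely spaced in the windows than elsewhere, and H3K9me2 regions less clearly so. H3K9me3 had 13.2 regions per Mb in the windows and 5.21 per Mb in the rest of the genome. H3K9me2 had 1.14 per Mb against 0.721 per Mb, but without the chromosome 7 window from 5.5 to 12 Mb, where WT replicate 2 stood apart, it had 0.867 per Mb (30 regions in 34.6 Mb). The H3K9me3 density without that window was 13.4 per Mb. The windows therefore held 3.73% of the H3K9me3 regions and 2.37% of the H3K9me2 regions, beside 1.51% of the genome. These shares describe regions called once for each mark, so they have no replicate error.

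The spacing differed between windows by several times. H3K9me3 was densest on chromosome 17 from 18 to 20.5 Mb, a mostly V2R window that also holds the Fpr genes, with 61 regions or 24.4 per Mb. The Olfr windows of chromosome 10 (35 regions, 23.3 per Mb), chromosome 9 (62 regions, 20.7 per Mb) and chromosome 2 (112 regions, 20.4 per Mb) followed. The Vmn1r windows of chromosome 6 were sparse, with 4 and 4.67 regions per Mb, below the rest of the genome. Olfactory windows as a class had 13.9 regions per Mb and vomeronasal windows 12.1. H3K9me2 regions were few, and 17 of the 47 lay on chromosome 7 from 5.5 to 12 Mb. Chromosome 2 held 9, chromosome 9 held 6 and chromosome 10 held 4, while the windows of chromosome 6 from 56.5 to 58 Mb and of chromosome 17 from 37 to 38.5 Mb held 0.

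**Figure D1:**
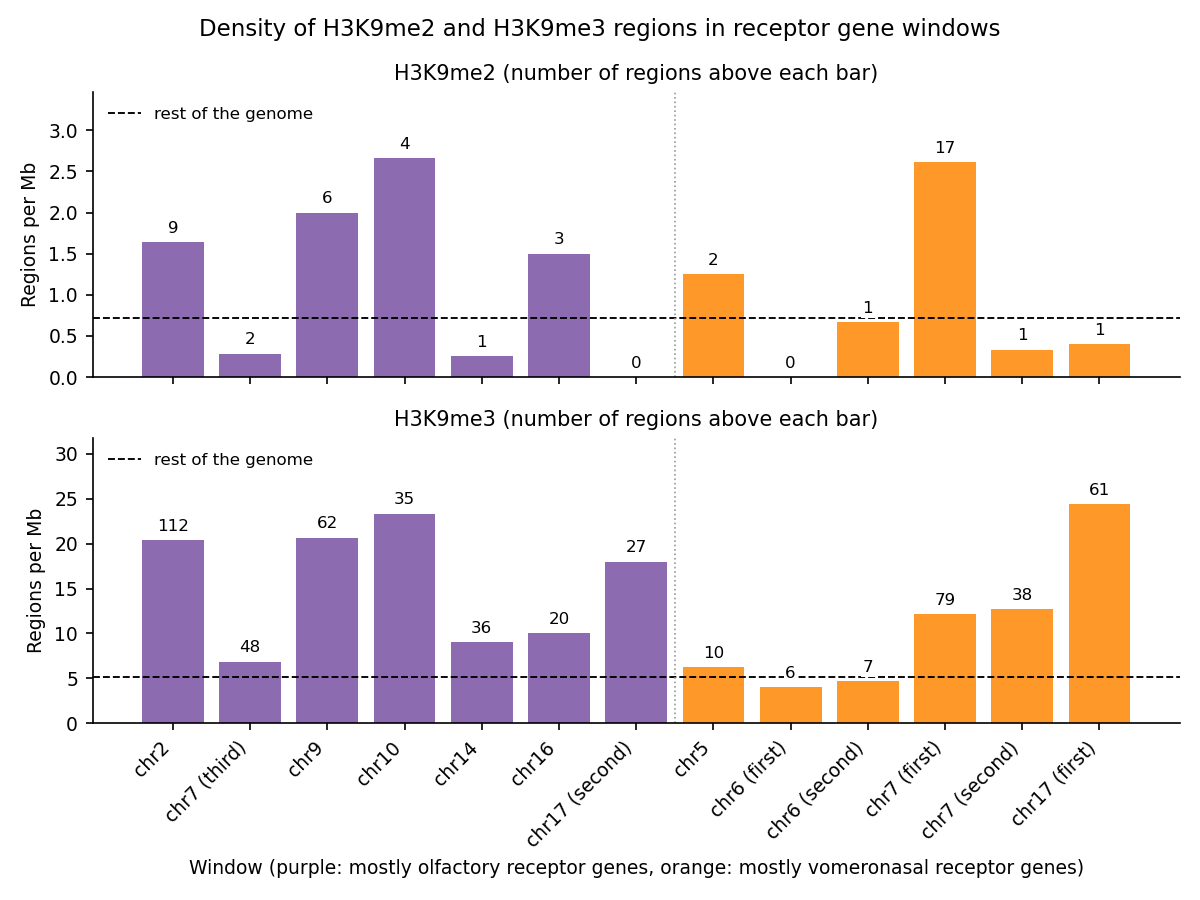
Regions per Mb of H3K9me2 (top) and H3K9me3 (bottom) in each of the 13 windows, with the number of regions above each bar; windows of one chromosome are numbered in order of position, and the dashed line is the density in the rest of the genome. The H3K9me3 bars pass that line in 11 of 13 windows, all but the chromosome 6 pair.

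Most regions lay close to receptor genes but not over them. Of the 541 H3K9me3 regions, 496 lay within 50 kb of a receptor gene, at a median of 3.15 kb. Of the 47 H3K9me2 regions 42 did, at a median of 4.09 kb. The windows were chosen as receptor clusters, and 69.2% of the stretches of 286 bp into which they can be cut end to end lay within 50 kb too, at a median of 9.19 kb, beside 91.7% of the H3K9me3 and 89.4% of the H3K9me2 regions. H3K9me3 regions overlapped a receptor gene in 130 cases and a receptor exon in 72, and H3K9me2 regions in 10 and 6 cases. No region of either mark in the windows overlapped the annotated start site of a receptor gene (0 of 541 and 0 of 47). Among the stretches 19.6% overlapped a receptor gene, 9.80% a receptor exon and 0.757% a start site, beside 24.0%, 13.3% and 0% of the H3K9me3 regions. Other gene families were touched rarely. Zfp787, a zinc-finger gene, was overlapped by 2 H3K9me3 regions, with 23 and 22 reads in HAT1 KO and 41 and 25 in HAT1 WT at the first. Trim12a, a gene of the antiviral Trim family, was overlapped by 1.

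The regions in the windows resembled those elsewhere in base composition and width. H3K9me3 regions had a median GC content of 49.6% in the windows and 49.9% elsewhere, and a median width of 286 and 289 bp. The sequence around them did not have that composition. The windows were cut into 143331 end-to-end stretches of 286 bp without unknown bases, whose median GC content was 39.2%. The middle of the distribution of H3K9me3 regions ran from 47.1% to 52.7% GC, against 34.6% to 44.4% for the stretches. Repeat-masked bases made up a median of 67.2% of an H3K9me3 region in the windows, 70.8% elsewhere and 35.3% of a stretch.

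Exons were more often overlapped in the windows. An exon was touched by 16.6% of the H3K9me3 regions there and by 5.28% of those elsewhere, and coding sequence by 9.24% and 1.82%. For H3K9me2 the exon shares were 17.0% and 7.23%, and the coding shares 10.6% and 2.89%. Receptor coding sequence accounted for most of this. It was overlapped by 44 H3K9me3 regions, or 8.13%, and by 3.20% of the stretches of 286 bp.

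The 44 regions lay over 44 different receptor genes, 39 Olfr and 5 Vmn2r, and none lay over a Vmn1r coding sequence. The coding sequence of an olfactory receptor is usually a single exon of about the same length in all members, here 924 to 972 bases. In 35 of the 39 Olfr cases the region lay wholly inside it. Region midpoints fell at a median of 43.5% of the way from the start codon, with a range of 7.59% to 72.6%, and 29 of the 39 lay before the middle. The 5 Vmn2r regions were each inside a single coding exon of 902 to 929 bases. The regions over Olfr coding sequence had little masked sequence, with a median of 7.45%, and 29 of the 39 had no near-identical copy elsewhere in the genome.

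**Figure D2:**
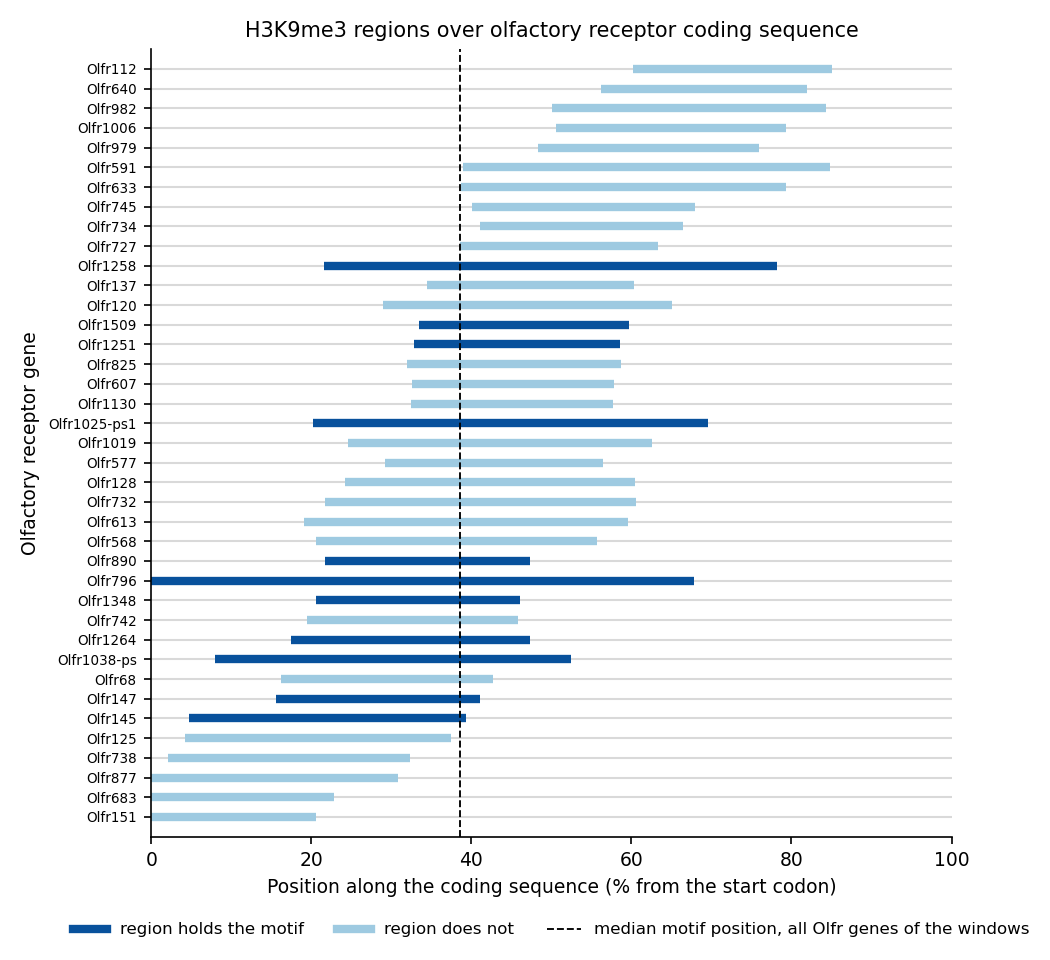
Extent of the 39 H3K9me3 regions over olfactory receptor coding sequence, one gene per line, from the start codon (0%) to the end of the coding exon (100%); parts outside the coding exon are not drawn. Dark bars hold the receptor motif, and the dashed line is its median position at 38.6% over the 323 Olfr coding sequences of the windows that hold it.

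The receptor motif shown above occurred in 11 of the 541 H3K9me3 regions (2.03%), searched on both strands. It occurred in 8 of the 13974 regions elsewhere (0.0572%) and in 449 of 143700 stretches of 286 bp in the windows (0.312%). All 11 regions lay over Olfr coding sequence. Among the 743 Olfr coding sequences of at least 800 bases in the windows, 323 (43.5%) held the letters, always between 34.8% and 43.1% of their length. A single H3K9me2 region held them, chr16:58824256-58824492 over Olfr175-ps1, with 6 and 14 reads in HAT1 KO and 4 and 26 in HAT1 WT.

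No region over receptor coding sequence passed the test between genotypes. The regions over a receptor exon with the most reads were named by a fixed rule. Over Olfr796, chr10:129607849-129608482 had 22 and 55 reads in HAT1 KO and 33 and 45 in HAT1 WT. Over an exon of Olfr1254, chr2:89787195-89787812 had 35 and 39 against 35 and 20. After TMM scaling, which acts on top of the library totals, both HAT1 KO libraries lay below both HAT1 WT libraries at Olfr796. The genotypes overlapped at Olfr1254. With library totals alone the log2 fold change at Olfr796 was 0.34, against -0.68 with TMM scaling. Over Olfr1258, whose sequence is the first of the motif lines, chr2:89930012-89930539 had 26 and 39 reads in HAT1 KO and 22 and 16 in HAT1 WT. Over an exon of Olfr1183, chr2:88464300-88464830 had 39 and 34 against 5 and 34, with WT replicate 1 low. Over an exon of Olfr259, chr2:87109875-87110314 had 28 and 36 against 25 and 7. None of these 5 passed the edgeR test (adjusted p between 0.815 and 0.987). Of all 44 regions over receptor coding sequence, 6 had both HAT1 KO libraries above both HAT1 WT libraries after TMM scaling and 9 had both below, shares that were 17.4% and 19.0% over all regions of the mark. The edgeR test was passed by 0 of the 44, beside 0.971% of all H3K9me3 regions that were called lower and 0.0276% higher in HAT1 KO.

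Over several V2R exons of chromosome 7 the single library WT replicate 2 was high. Over Vmn2r43, the H3K9me3 region chr7:8244817-8245054 had 0 and 7 reads in HAT1 KO and 2 and 20 in HAT1 WT. The H3K9me2 region at the same exon, chr7:8244834-8245070, had 1 and 4 against 5 and 27. WT replicate 2 was the highest library over Vmn2r33 too, with 11 and 5 against 6 and 22 for H3K9me3 and 3 and 13 against 6 and 34 for H3K9me2, where the other HAT1 WT library was not above both HAT1 KO libraries. Over Vmn2r44, H3K9me2 had 12 and 18 reads in HAT1 KO and 2 and 47 in HAT1 WT. At a region outside this array the order was different. At Vmn2r67 on chromosome 7 from 84 to 87 Mb, H3K9me3 had 8 and 24 reads in HAT1 KO and 2 and 1 in HAT1 WT. Vmn2r67 and the H3K9me3 regions over Vmn2r33 and Vmn2r43 were singled out after their values had been seen.

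The window of chromosome 7 from 5.5 to 12 Mb holds 39 Vmn2r, 32 Vmn1r, 25 zinc-finger and 9 Olfr genes. In its 17 H3K9me2 regions the summed reads were 153 and 162 in HAT1 KO and 148 and 675 in HAT1 WT. In its 79 H3K9me3 regions they were 964 and 1172 in HAT1 KO and 938 and 2255 in HAT1 WT. WT replicate 2 was thus alone in being high, in both marks. After TMM scaling it held 4.81 times the reads of WT replicate 1 in H3K9me2 and 2.24 times in H3K9me3. HAT1 KO stood at 0.926 and 0.708 times WT replicate 1.

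**Figure D3:**
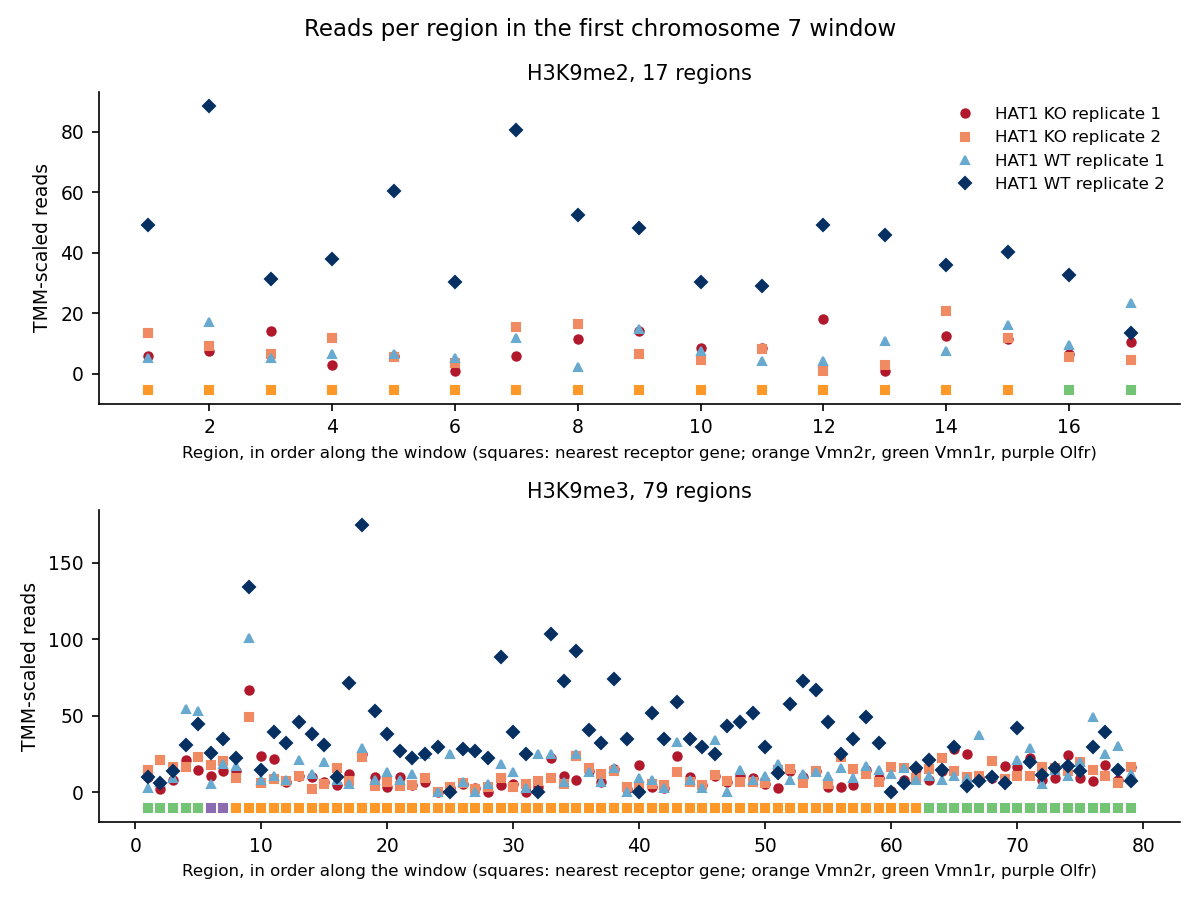
TMM-scaled reads of each library in the 17 H3K9me2 (top) and 79 H3K9me3 (bottom) regions of chromosome 7 from 5.5 to 12 Mb, in order along the window, with the family of the nearest receptor gene as coloured squares. WT replicate 2 is the highest library in 16 of 17 and 52 of 79 regions, and 4 H3K9me3 regions have 0 reads in it.

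The excess lay mostly over the V2R part of the window. WT replicate 2 exceeded every other library by over 2 times, after TMM scaling, at 15 of 17 regions for H3K9me2 and 37 of 79 for H3K9me3. Over all regions this share was 10.6% for H3K9me2 and 6.31% for H3K9me3, and over the other windows 20% (6 of 30) and 4.98% (23 of 462). Among H3K9me3 regions of the window within 50 kb of a receptor gene, 34 of the 51 nearest to a Vmn2r gene showed it and 0 of the 13 nearest to a Vmn1r gene. For H3K9me2 it was 14 of the 15 nearest to a Vmn2r gene and also the 1 nearest to a Vmn1r gene, chr7:10429311-10429659 near Vmn1r67, with 7 and 6 reads in HAT1 KO and 9 and 29 in HAT1 WT. A region can be listed in the table through the 1 library in which it is high. The first and the last H3K9me3 region that showed it were 2.71 Mb apart, near Vmn2r31 and Vmn2r51. In the regions between, WT replicate 2 held 3.41 times the reads of WT replicate 1, and in the rest of the window 1.11 times. These bounds were set after the values had been seen. No H3K9me3 region that showed the excess can lie outside them, so the contrast of 3.41 and 1.11 partly follows from the choice.

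H3K9me3 at V2R regions in the other windows gave no such excess. The 99 H3K9me3 regions within 50 kb of a Vmn2r gene outside this window had 1.01 times as many scaled reads in WT replicate 2 as in WT replicate 1, and 6 of them passed the 2-fold mark. For H3K9me2 there were only 3 such regions, at 1.74 times and with 0 past that mark. At 4 H3K9me3 regions inside the V2R array WT replicate 2 was instead at 0. The region over Vmn2r38, chr7:9086755-9086992, had 20 and 4 reads in HAT1 KO and 7 in WT replicate 1. The other 3 had at most 22 reads in the highest library. They were singled out after their values had been seen.

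The same loci stood out in both marks. An H3K9me3 region lay over 14 of 17 H3K9me2 regions in this window, sharing at least 1 bp, and after TMM scaling WT replicate 2 was the highest library in both members of all 14 pairs. By reads alone this was not so at the H3K9me3 region near Vmn1r67, which had 9 and 20 in HAT1 KO and 8 and 17 in HAT1 WT. In the other windows there were 9 such pairs, and WT replicate 2 was the highest in 0 of them in either mark. Over all windows the pairs took in 23 of 47 H3K9me2 regions (48.9%) and 4.25% of the 541 H3K9me3 regions. Elsewhere in the genome the shares were 39.9% and 5.47%. The higher H3K9me2 share came from the chromosome 7 window from 5.5 to 12 Mb, at 82.4% (17.7% for H3K9me3), and the other windows, at 30.0% and 1.95%, lay below the rest of the genome. Whether the libraries of the 2 marks with the same number came from the same culture is not given in the labels.

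Many regions of this array exist in several copies. A near-identical copy, of at least 95% identity over at least 90% of the region, was present elsewhere in the genome for 16 of 17 regions (H3K9me2) and 60 of 79 regions (H3K9me3) of the window. In the other windows it was present for 4 of 30 and 87 of 462. Counts at such regions are uncertain as to which copy the reads came from, and how reads with several matches were placed is not given in the sources used here. Within the window, the median H3K9me3 level of WT replicate 2 over WT replicate 1 was 0.40 higher on the log2 scale at the 19 regions without a copy and 1.43 higher at the 60 with one. The part that the copies play in the result was not tested.

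Between genotypes, 2 of the 47 H3K9me2 regions were lower in HAT1 KO and 0 were higher in the edgeR quasi-likelihood test (false discovery rate, FDR, under 0.05, TMM scaling). The share called over all 1983 H3K9me2 regions was 1.66% lower and 0.202% higher. Of the 541 H3K9me3 regions 6 were lower and 0 higher, beside 0.971% lower and 0.0276% higher over all 14515. Of these 8 regions 7 lay in the V2R array of chromosome 7 from 5.5 to 12 Mb and WT replicate 2 held the most reads in all 8. At an unadjusted p under 0.05, 5 H3K9me2 and 49 H3K9me3 regions were lower and 0 of either mark higher, where over all regions 7.21% and 8.16% were lower and 2.02% and 0.985% higher. This balance went with TMM scaling. With library totals 86 H3K9me3 regions of the windows were higher and 6 lower at that p (22.6% and 0.703% over all regions), and 3 H3K9me2 regions were higher and 4 lower (16.8% and 0.958%).

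The called H3K9me2 regions were intergenic. At chr7:7521068-7521609, 13.0 kb from the gene model Gm6842, reads were 8 and 10 in HAT1 KO and 16 and 79 in HAT1 WT. The log2 fold change was -2.64 (SE 0.69, edgeR adjusted p = 0.0120). Both HAT1 KO libraries were below both HAT1 WT libraries, but WT replicate 1 was far nearer to HAT1 KO than to its own replicate. At chr7:10001385-10001656, 9.13 kb from Vmn2r49, reads were 1 and 3 against 10 and 41 (-3.85, SE 1.17, edgeR adjusted p = 0.0443). The first of these loci overlaps a called H3K9me3 region and is the first sequence printed above. Without WT replicate 2 their log2 fold changes were -1.12 and -2.55, and neither passed (edgeR adjusted p = 0.989 and 0.199).

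WT replicate 2 was also the highest library at the 6 called H3K9me3 regions. At 5 of them both HAT1 KO libraries lay below both HAT1 WT libraries after TMM scaling. At chr7:7520861-7521571 reads were 28 and 30 in HAT1 KO and 22 and 142 in HAT1 WT (log2 fold change -2.09, SE 0.51, edgeR adjusted p = 0.00786). At chr7:8229981-8230596, 13.8 kb from Vmn2r43, they were 5 and 12 against 14 and 72 (-2.94, SE 0.63, edgeR adjusted p = 0.000825). At chr7:8359099-8359623, 1.19 kb from the gene model Gm7696, they were 25 and 12 against 19 and 84. After TMM scaling, WT replicate 1 lay above both HAT1 KO libraries at these 3 and nearer to them than to WT replicate 2. At chr7:8368980-8369414, over an exon of Vmn2r44 outside its coding sequence, reads were 12 and 7 against 5 and 59. There WT replicate 1 lay between the HAT1 KO libraries after TMM scaling. At chr7:9994382-9994929, 2.12 kb from Vmn2r49, they were 11 and 8 against 9 and 59. The sixth, chr7:103666798-103667111, was the only one outside the array. It lies over an exon of the olfactory receptor gene Olfr624, is repeat-masked throughout and has 64 near-identical copies, with 7 and 8 reads in HAT1 KO and 8 and 50 in HAT1 WT. Without WT replicate 2 none of the 6 passed (edgeR adjusted p = 1.00 for each), and at the Vmn2r44 exon the log2 fold change turned from -2.31 to 0.29. Of all H3K9me2 regions 2.52%, and of all H3K9me3 regions 1.25%, were called lower without that library. Without either HAT1 KO library, too, none of the 8 passed (edgeR adjusted p between 0.241 and 0.914, where the lone HAT1 KO library is taken to vary like the others), and with the replicate number as a block 1 of the 8 did, at chr7:8229981-8230596. Library totals in place of TMM scaling also left 0 calls among the 588 regions, where 5.5% of all H3K9me2 and 0.785% of all H3K9me3 regions were called higher and 0.252% and 0.103% lower.

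With TMM scaling, few regions separated the genotypes beyond the share seen over the whole tables. Both HAT1 KO libraries were below both HAT1 WT libraries, after TMM scaling, at 121 of the 541 H3K9me3 regions (22.4%), where the share over all regions was 19.0%. They were above at 70 (12.9%), where it was 17.4%. In the chromosome 7 window from 5.5 to 12 Mb 32 of 79 were below. In the other windows 89 of 462 were below (19.3%) and 66 above (14.3%). For H3K9me2 they were below at 14 of 47 (29.8%, against 16.7% over all regions) and above at 7 (14.9%, against 19.9%). Of the 14, 8 lay in that window, and of the 30 regions elsewhere 6 were below and 7 above. With library totals the balance turned. Both HAT1 KO libraries were then above at 264 H3K9me3 regions of the windows (48.8%, against 57.6% over all regions) and below at 15 (2.77%, against 2.65%). For H3K9me2 they were above at 13 (27.7%, against 45.5%) and below at 3 (6.38%, against 3.98%).

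The direction over all windows depended on how libraries were scaled. Scaled by the library total, as RPM, the H3K9me3 regions held 2284 and 2454 in HAT1 KO and 1368 and 1608 in HAT1 WT. HAT1 KO was higher, with no overlap. After TMM scaling, which is set by a trimmed mean of the differences over all regions, the sums were 8625 and 8596 in HAT1 KO and 10510 and 11277 in HAT1 WT. HAT1 KO was now lower, again with no overlap, at 0.790 times HAT1 WT. The sums over all H3K9me3 regions of the table were lower as well, at 0.778 times HAT1 WT. These sums rest in part on regions outside the windows with very high counts, given below. The H3K9me2 regions held 120.2 and 127 RPM in HAT1 KO and 68.6 and 171 in HAT1 WT, where the genotypes overlapped. The same change of scale moved the median of all regions of the table from 0.06 to 1.01 (log2, HAT1 KO minus HAT1 WT) for H3K9me3 and from 0.10 to 0.74 for H3K9me2, so the windows were also compared with the rest of the table within each library.

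Relative to the rest of the table, the median H3K9me3 region of the windows was slightly lower in HAT1 KO, while the share of reads overlapped between genotypes. The median log2 level in the windows minus that of all other regions was -0.08 and -0.13 in HAT1 KO and 0.00 and 0.11 in HAT1 WT. The difference was -0.16 and both HAT1 KO libraries lay below both HAT1 WT libraries (exact two-sided permutation test, p = 0.333, the smallest that 2 against 2 libraries can give). Library totals gave the same value to 2 decimals, and without WT replicate 2 it was -0.10. As a share of all reads in H3K9me3 regions the windows held 1.16% and 1.20% in HAT1 KO and 1.14% and 1.18% in HAT1 WT, and the genotypes overlapped. Single regions outside the windows weighed on this share. They held up to 172047 and 185895 reads in HAT1 KO and up to 160475 and 177703 in HAT1 WT. The share without them was not worked out. For H3K9me2 the values were -0.73 and -0.77 in HAT1 KO and -0.77 and 0.53 in HAT1 WT. Their difference of -0.63 (exact permutation p = 0.667) rested on WT replicate 2, and without it was 0.02. The median level itself differed between genotypes by -0.06 for H3K9me3 (exact permutation p = 0.333) and by -0.45 for H3K9me2 (exact permutation p = 1.00), beside 0.06 and 0.10 over all regions, and without WT replicate 2 the H3K9me2 value was 0.19.

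**Figure D4:**
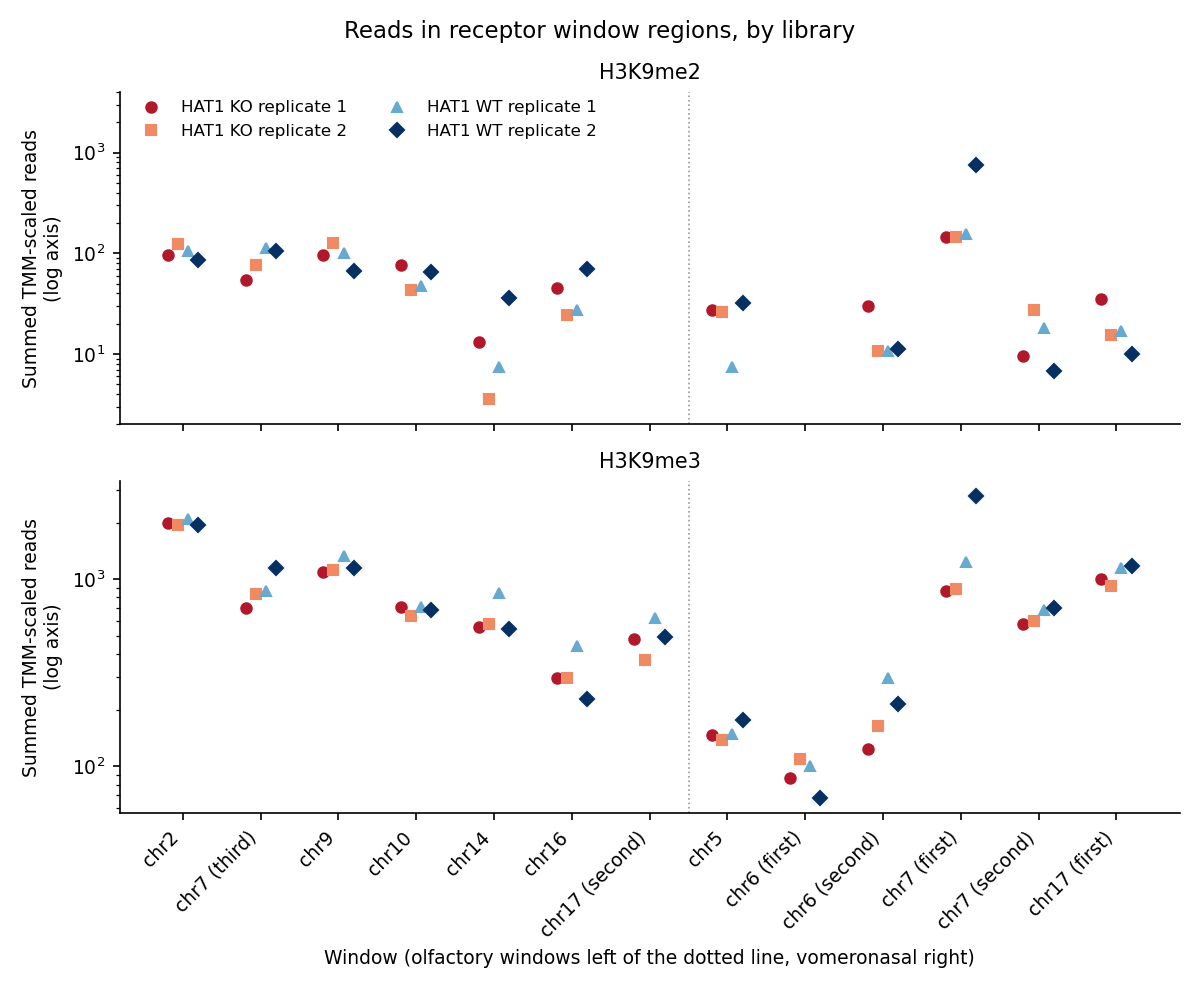
Summed TMM-scaled reads of the H3K9me2 (top) and H3K9me3 (bottom) regions of each window, on a log axis, with one symbol per library. WT replicate 2 stands above the other 3 libraries in both marks in the first chromosome 7 window, at 755 and 2776 scaled reads.

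The difference between genotypes varied from window to window. For H3K9me3 the difference of the genotype medians lay between -0.51 (chromosome 17 from 37 to 38.5 Mb) and 0.12 (chromosome 10) in 12 windows and was -0.93 on chromosome 7 from 5.5 to 12 Mb. Without WT replicate 2 the latter was -0.31 and no longer the lowest. The values then ran from -0.72 (chromosome 6 from 89.5 to 91 Mb, from -0.34 with that library) to 0.22 (chromosome 5). Chromosome 14 moved from -0.23 to -0.54, chromosome 16 from -0.04 to -0.53, and chromosome 6 from 56.5 to 58 Mb from 0.10 to -0.35. With WT replicate 1 left out instead, chromosome 6 from 89.5 to 91 Mb stood at 0.05, chromosome 14 at 0.09 and chromosome 16 at 0.45. Chromosome 6 from 56.5 to 58 Mb then stood at 0.55, and chromosome 7 from 5.5 to 12 Mb at -1.55. On chromosome 16 WT replicate 2 was low rather than high, 0.98 below WT replicate 1. The strongest of its 20 regions was chr16:59335765-59336264, 4.63 kb from Olfr205, with 54 and 39 reads in HAT1 KO and 46 and 3 in HAT1 WT. This region is repeat-masked throughout and has 173 near-identical copies. On chromosome 17 from 37 to 38.5 Mb the difference was -0.51 with or without WT replicate 2.

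**Figure D5:**
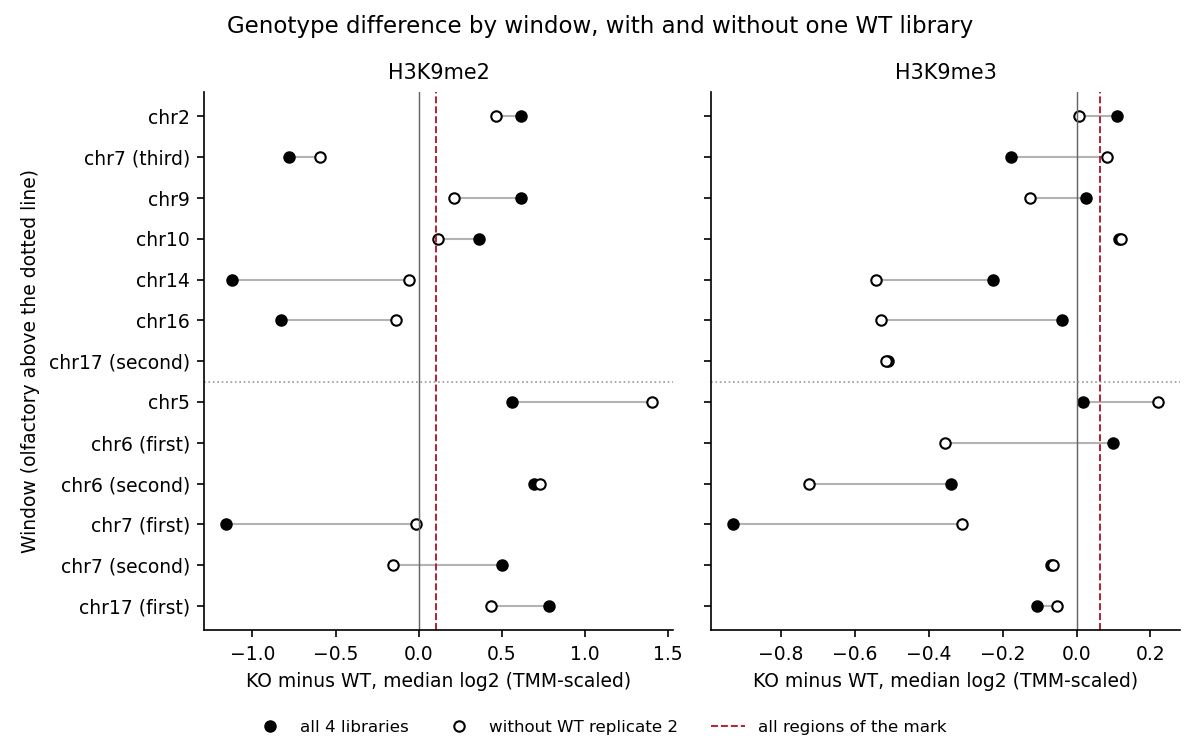
Difference of HAT1 KO and HAT1 WT medians of log2(TMM-scaled count + 1) in each window, for all 4 libraries (filled) and without WT replicate 2 (open), with the difference over all regions of the mark as a dashed line. The first chromosome 7 window moves from -1.16 to -0.01 in H3K9me2 and from -0.93 to -0.31 in H3K9me3. Values of windows with 1 or 2 H3K9me2 regions rest on those regions alone.

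Olfactory and vomeronasal windows were then compared within each library. For H3K9me3 the median of olfactory minus that of vomeronasal windows was 0.44 and 0.27 in HAT1 KO and 0.23 and -0.28 in HAT1 WT. The genotypes did not overlap, with a difference of 0.38 (exact permutation p = 0.333), which fell to 0.13 without WT replicate 2 and to 0.09 without the chromosome 7 window from 5.5 to 12 Mb. For H3K9me2 the values were 0.31 and 0.32 in HAT1 KO and 0.59 and -1.53 in HAT1 WT, which overlapped. Their difference of 0.78 (exact permutation p = 1.00) turned to -0.27 without WT replicate 2.

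The strongest region of a window overlapped a receptor gene in 3 of 13 windows for H3K9me3 and in 1 of 11 for H3K9me2, where a window without H3K9me2 regions is left out. The highest H3K9me3 region of all windows by mean RPM, chr6:89835239-89836331, lay 6.24 kb from Vmn1r42 and had 71 and 90 reads in HAT1 KO and 102 and 115 in HAT1 WT. After TMM scaling HAT1 KO was lower without overlap, but the region did not pass (log2 fold change -1.06, SE 0.45, edgeR adjusted p = 0.349). With library totals the log2 fold change was -0.05. On chromosome 7 from 5.5 to 12 Mb it was chr7:7277717-7278350, over exons of the gene models Gm18190 and Gm45844, with 74 and 65 reads in HAT1 KO and 76 and 109 in HAT1 WT. On chromosome 10 it was chr10:130412423-130413215, over an exon of Gm9770, with 71 and 54 against 64 and 38. On chromosome 2 it was chr2:86588227-86588707, 4.71 kb from Olfr1082, with 31 and 50 against 32 and 71. On chromosome 17 from 18 to 20.5 Mb it lay in an intron of Vmn2r102, chr17:19690831-19691510, with 32 and 35 against 47 and 44. The windows of chromosome 5 and of chromosome 6 from 56.5 to 58 Mb had theirs in introns of Vmn2r16 and Vmn1r5, with 11 to 27 and 19 to 30 reads.

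After TMM scaling both HAT1 KO libraries lay below both HAT1 WT libraries at 9 of the 13 strongest H3K9me3 regions and above at 0, where over all regions of the mark the shares were 19.0% and 17.4%. With library totals they lay below at 2 of the 13 and above at 4 (2.65% and 57.6% over all regions). None of the 13 passed (edgeR adjusted p between 0.307 and 0.991). Among the 9 were the regions given above for chromosome 2, chromosome 7 from 5.5 to 12 Mb and chromosome 17 from 18 to 20.5 Mb, and the 3 that follow. On chromosome 7 from 84 to 87 Mb chr7:86841986-86842541, 16.8 kb from the pseudogene Vmn2r-ps87, had 35 and 38 reads in HAT1 KO and 32 and 59 in HAT1 WT. On chromosome 14 chr14:51434852-51435124, in an intron of the gene model Gm7247, had 20 and 27 against 41 and 24. On chromosome 17 from 37 to 38.5 Mb chr17:37719311-37720014, 1.79 kb from Olfr120, had 41 and 43 against 37 and 31.

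On chromosome 9 the strongest locus was shared by both marks. At 5.70 kb from Olfr915, H3K9me2 had 25 and 39 reads in HAT1 KO and 27 and 19 in HAT1 WT at chr9:38640639-38640892. H3K9me3 had 42 and 33 against 64 and 54 at chr9:38640559-38640886. After TMM scaling, H3K9me3 was lower in both HAT1 KO libraries, and H3K9me2 overlapped between genotypes. With library totals the H3K9me3 log2 fold change was -0.26, against -1.27 with TMM scaling. The locus passed the test in neither mark (edgeR adjusted p = 0.882 for H3K9me2 and 0.307 for H3K9me3).

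In most other windows the strongest H3K9me2 region had at most 37 reads in any library. On chromosome 2 the highest, chr2:88335238-88335490 at 1.23 kb from Olfr1176, had 7 and 22 reads in HAT1 KO and 17 and 12 in HAT1 WT. On chromosome 10 the highest, chr10:129942882-129943252 at 1.14 kb from Olfr818, had 8 and 13 against 15 and 34. In an intron of Vmn1r42, chr6:89849229-89849485 had 32 and 12 against 10 and 10. After TMM scaling the genotypes overlapped at the first and the third, while both HAT1 KO libraries were below at the second. Near Vmn2r11 on chromosome 5, chr5:109063813-109064082 had 25 and 14 reads in HAT1 KO and 3 and 7 in HAT1 WT. WT replicate 2 was not high there, unlike in the V2R array of chromosome 7. The region did not pass (log2 fold change 1.70, SE 1.26, edgeR adjusted p = 0.773). Over an exon of Olfr1126, chr2:87457503-87457739 had 2 and 5 against 6 and 22, with both HAT1 KO libraries below.

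At the strongest H3K9me2 region of 4 further windows the genotypes overlapped after TMM scaling, and none passed (edgeR adjusted p between 0.770 and 0.826). On chromosome 7 from 84 to 87 Mb chr7:86504983-86505469, 12.5 kb from Olfr298, had 10 and 30 reads in HAT1 KO and 17 and 6 in HAT1 WT. On chromosome 14 chr14:53626532-53626889, 4.29 kb from the T cell receptor gene Trav12-3, had 14 and 4 against 7 and 32. On chromosome 16 chr16:58220631-58221049, 17.1 kb from the non-coding gene Gm49574, had 15 and 6 against 10 and 28. On chromosome 17 from 18 to 20.5 Mb chr17:19452615-19453007, in an intron of the non-coding gene 4930549P19Rik, had 37 and 17 against 16 and 9. The median count of an H3K9me2 region in the windows was 9 to 22 reads, and that of an H3K9me3 region 12 to 20. The smallest change among the 8 regions that passed was -2.04 on the log2 scale, and a region that did not pass is not shown to be alike in the genotypes at this depth.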

How the data were processed

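ChIP-seq libraries numbered 8, 2 HAT1 KO and 2 HAT1 WT per mark, grouped by their titles, with no input library used here. The authors aligned paired-end reads to mm10 with BWA 0.7.12, called peaks with MACS2 2.1.0 and named DiffBind, per the submitters' processing notes and the methods. Per mark, the authors deposited one table of regions with unnormalized read counts per library, and RPM values that equal the count plus 1 over one total per library. Whether that total was scaled by the spike-in, and how duplicate and multiply matching reads were treated, is not given in the sources used here. The deposited fold enrichments, log fold changes, p-values and q-values of the authors were not used. Every per-sample count and RPM column was used, and library totals were taken from the RPM values.

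Repeated rows were removed (62 of 2045 and 314 of 14829). Starts were read as counted from 0 and are given counted from 1. Counts of every region were tested with edgeR 4.0.16 (R 4.3.3) by glmQLFit and glmQLFTest. TMM factors on the library totals were used, with no filter and no block, and Benjamini-Hochberg FDR under 0.05 over the whole table. The test had first been tried on simulated data. It recovered 0% of simulated 2-fold changes in either mark. Of 4-fold changes it recovered 8.0% (H3K9me2) and 0.5% (H3K9me3), and of 8-fold changes 69.5% and 54.0%. Scaled counts divide by the library total times its TMM factor. Library medians of log2(scaled count + 1) were set against each other by exact permutation (two-sided). Genes, exons and coding sequences came from GENCODE M21, sequence and repeat masking from RefSeq GRCm38.p6, and near-identical copies from blastn 2.17.0. A region over no gene was named by its nearest gene. The libraries of one mark share a genotype and a replicate number only: the differences between replicates 1 and 2 of HAT1 KO and HAT1 WT correlated at r = 0.03 (H3K9me2) and 0.00423 (H3K9me3) across regions. P-values measure the spread between these libraries.

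The windows, gene families and comparisons were chosen with earlier results of these data known. Regions named were all members past the threshold, in each window and mark the one of highest mean RPM, and in each mark the 5 of highest mean RPM over a receptor exon, and 1 locus that this names, in both marks, is not reported here. Alternatives were library totals, counts in regions, DESeq2 1.42.0, filterByExpr, other FDR thresholds, a pseudocount of 0.1, the replicate block, each library left out, and regions within 50 kb of a receptor gene.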

Additional observations from a re-analysis of the deposited data

How the results depend on the processing

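The count of regions that differed between genotypes depended on nearly every choice. For the H3K9me2 regions of the windows (2 called) it was 0 with library totals alone, 1 with counts in regions as library size, 1 with filterByExpr, 0 at FDR under 0.01, 0 with the replicate block, 0 with DESeq2 without independent filtering, and 0 to 4 when each library was left out. For H3K9me3 (6 called) it was 0, 1, 5, 2, 1 and 0 in that order, 10 at FDR under 0.1, 0 with DESeq2 as run by default, and 0 to 21 when each library was left out. The highest values, 4 and 21, came without WT replicate 1, and without either HAT1 KO replicate or WT replicate 2 it was 0. By default DESeq2 gave an adjusted p to 0 of 47 regions (H3K9me2) and 22 of 541 (H3K9me3), among them 2 of the 6 called, so it gave no count for H3K9me2; it called 21 H3K9me2 and 70 H3K9me3 regions over the whole tables. Apart from library totals, default DESeq2 and the fit without WT replicate 2, the count over the whole tables is not given here. The counts in the other settings therefore do not show whether the windows differ from the rest. All 8 called regions stayed lower in HAT1 KO under every alternative that gave a value, other than the region over the Vmn2r44 exon. Its log2 fold change ran from -3.19 to 0.29 as each library was left out.

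The H3K9me2 median difference (-0.45) turned to 0.17 with library totals, to 0.12 without the chromosome 7 window from 5.5 to 12 Mb and to 0.74 with both, and ran from -1.09 to 0.19 as each library was left out. The H3K9me3 median difference (-0.06) turned to 0.89 with library totals, 0.28 with counts in regions and 0.91 with library totals without that window. Relative to other regions, the H3K9me3 value (-0.16) was negative under all 11 alternatives tried, from -0.21 to -0.10 as each library was left out. The H3K9me2 value ran from -1.28 to 0.015 as each library was left out, the highest without WT replicate 2. Olfactory minus vomeronasal windows ran from -0.27 to 1.84 for H3K9me2, and was -0.68 without that window. For H3K9me3 it was positive under all 10 alternatives, from 0.13 to 0.64 as each library was left out. For these H3K9me3 values many outcomes were fixed beforehand. Library scaling cancels within a library except through the pseudocount, and the replicate block cannot move a median. Leaving out a library cannot turn the sign where the genotypes do not overlap. Why the values changed between settings was not tested. The analyses without that window and DESeq2 without independent filtering were chosen after seeing the data. Blocking on the replicate number left the medians as they were, at -0.45 and -0.06 for the median difference, since each genotype holds both numbers. The overlap of the marks was 46.8% of H3K9me2 regions when the shorter region had to be covered to 50%.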
